A study of Mus musculus with 11 samples.

Results

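The Ikaros family of zinc finger transcription factors has 4 members studied here: Ikzf1 (Ikaros), Ikzf2 (Helios), Ikzf3 (Aiolos) and Ikzf4 (Eos). For each gene 1 window of mouse build mm9 was set by coordinates. Ikzf1 lay on chromosome 11 between 11560000 and 11690000 (130 kb), and Ikzf2 on chromosome 1 between 69540000 and 69760000 (220 kb). Ikzf3 lay on chromosome 11 between 98310000 and 98425000 (115 kb), and Ikzf4 on chromosome 10 between 128050000 and 128100000 (50 kb). All positions of 5 deposited lists and all Foxp3 peaks inside these limits were taken. RefSeq (GRCm38.p6) gives these genes lengths of 88.0, 156, 81.4 and 38.8 kb, and their nearest neighbours are 4930512M02Rik and Fignl1 (Ikzf1), Erbb4 and Spag16 (Ikzf2), Grb7 and Zpbp2 (Ikzf3), and Rps26 and Suox (Ikzf4). The windows are wider than the genes and may reach into such neighbours, which was not checked in mm9. The selection gave 952 of 1059098 binding positions and 11 of 2886 Foxp3 peaks.

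Ikaros family proteins bind DNA through zinc fingers near their amino terminus and pair with each other through fingers at the carboxyl end. Ikaros and Aiolos are regulators of lymphocyte development. Helios is expressed in a large share of regulatory T cells, and Eos is known as a partner of Foxp3 in gene silencing. Foxp3 is the lineage-defining factor of regulatory T cells, Elf1 and Ets1 are ETS family activators of lymphocytes that bind around a GGAA core, and Cbfb is the partner of Runx proteins that does not itself touch DNA. The data measured where these factors sat on chromatin, and not how much of any Ikaros family RNA or protein was made.

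Chromatin immunoprecipitation and sequencing had been done on CD4+ T cells from lymph nodes and spleen of mice about 8 weeks old, sorted by a green fluorescent reporter of Foxp3. Foxp3-positive CD4+ T cells, called Treg below, gave 3 Foxp3 libraries (replicate 1 in 2 technical runs, and replicate 2), which the authors combined into 1 peak list. Elf1, Ets1 and Cbfb were each mapped in a single Treg library. Elf1 and Ets1 were also mapped, in a single library apiece, in CD4+ cells without Foxp3, for which the name CD4 is used from here on. The CD4 Elf1 list was deposited under another abbreviation for its cells and is taken as CD4 from its sample record, so its contrasts rest on that record. The sources used here give no strain, and no genotype beyond the reporter. The Foxp3 antibody was an affinity-purified polyclonal one. The remaining 3 of the 11 samples, a CD4 Cbfb library and 2 Treg inputs, were not analysed here.

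A binding position is a single base with a score, a false discovery rate (FDR) and a fold enrichment, all set by the authors. Positions with an FDR of at most 0.01 are used unless another list is named. The Treg lists then held 157731 (Elf1), 61761 (Ets1) and 121632 (Cbfb) positions, and the CD4 lists 53580 (Elf1) and 42040 (Ets1). Because their lengths differ and read depth is unknown, the 20000 highest-scoring positions of each library were compared as well. With 1 library per group there is no replicate check and no p-value. Intervals are exact 95% intervals and cover counting error only.

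RefSeq (GRCm38.p6) promoters, stretches of 300 bases around a transcript's start, were in the table used here for 1 of the 4 members, Ikzf1, which has 2 of them. They are shown because no mm9 genome was at hand from which to read the sequence of the Foxp3 peaks. Both are from the plus strand of chromosome 11, the first from 11685675 to 11685974 and the second from 11689927 to 11690226 in GRCm38.p6. Those coordinates are on another build than the binding positions and were not placed on them. Capitals mark the ETS core GGAA or its reverse TTCC.
Ikzf1 promoter 1: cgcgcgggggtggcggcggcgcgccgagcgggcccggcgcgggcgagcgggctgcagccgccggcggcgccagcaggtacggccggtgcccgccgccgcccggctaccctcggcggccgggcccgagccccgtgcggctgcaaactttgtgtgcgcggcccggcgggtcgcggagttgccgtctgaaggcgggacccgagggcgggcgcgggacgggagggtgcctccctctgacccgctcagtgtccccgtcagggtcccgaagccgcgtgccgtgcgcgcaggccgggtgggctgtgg
Ikzf1 promoter 2: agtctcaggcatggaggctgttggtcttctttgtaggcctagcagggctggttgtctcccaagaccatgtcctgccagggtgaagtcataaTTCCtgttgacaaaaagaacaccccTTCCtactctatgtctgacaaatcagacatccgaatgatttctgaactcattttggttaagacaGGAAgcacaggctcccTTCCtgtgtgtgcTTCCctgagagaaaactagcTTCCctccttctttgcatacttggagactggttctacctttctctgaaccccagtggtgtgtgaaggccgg
The first promoter held 0 matches to GGAA on either strand and had a GC content of 81.3%, and the second held 6 matches at a GC content of 49%. A match to GGAA occurred in 96.0% of all 32851 promoters of the table, with a median of 3. Neither Ikzf1 promoter held TGTGGT (a Runx motif, in 16.8% of promoters), TGTTTAC (forkhead, 3.65%), CACGTG (E-box, 7.15%) or TGGGAA (an Ikaros core that contains GGAA, 25.6%), with both strands searched. A match describes letters and not binding.

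The widest contrast between the cell types among the 4 windows was at Ikzf2. The Treg libraries had 74 Elf1 and 104 Ets1 positions in the window, against 3 Elf1 and 7 Ets1 positions in the CD4 libraries. Per 10 kb this was 3.36 Elf1 positions (2.64 to 4.22) in Treg and 0.136 (0.0281 to 0.399) in CD4. For Ets1 it was 4.73 (3.86 to 5.73) in Treg and 0.318 (0.128 to 0.656) in CD4. The Treg levels were 5.64 and 20.2 times the density of the same lists over the numbered chromosomes and X. The CD4 levels were 0.673 and 2.00 times it. Treg thus supplied 96.1% of the Elf1 positions at Ikzf2 (89.0 to 99.2), where it supplied 74.6% over the whole lists, and 93.7% of the Ets1 positions (87.4 to 97.4), against 59.5% over the whole lists. In bulk chromatin, binding in fewer cells and weaker binding in each cell cannot be told apart.

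The gap at Ikzf2 was as wide at equal list length. Among the 20000 highest scores of each library, the window held 22 Treg and 1 CD4 Elf1 positions, and 55 Treg and 2 CD4 Ets1 positions. Among the 10000 highest it held 11 Treg and 0 CD4 Elf1 positions, and 34 Treg and 0 CD4 Ets1 positions. The exact Poisson interval of a count of 0 in this window reaches 0.168 positions per 10 kb. When the genome was divided into 11984 tiles as wide as the Ikzf2 window, a single tile (0.00834%) had a Treg minus CD4 difference of at least 21 in Elf1 counts. For the Ets1 difference of at least 53 it was again a single tile (0.00834%). In both cases that tile overlapped the Ikzf2 window itself. Tiles cover gene-poor regions as well, so they are a description of the genome and not a matched set of genes.

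**Figure D1:**
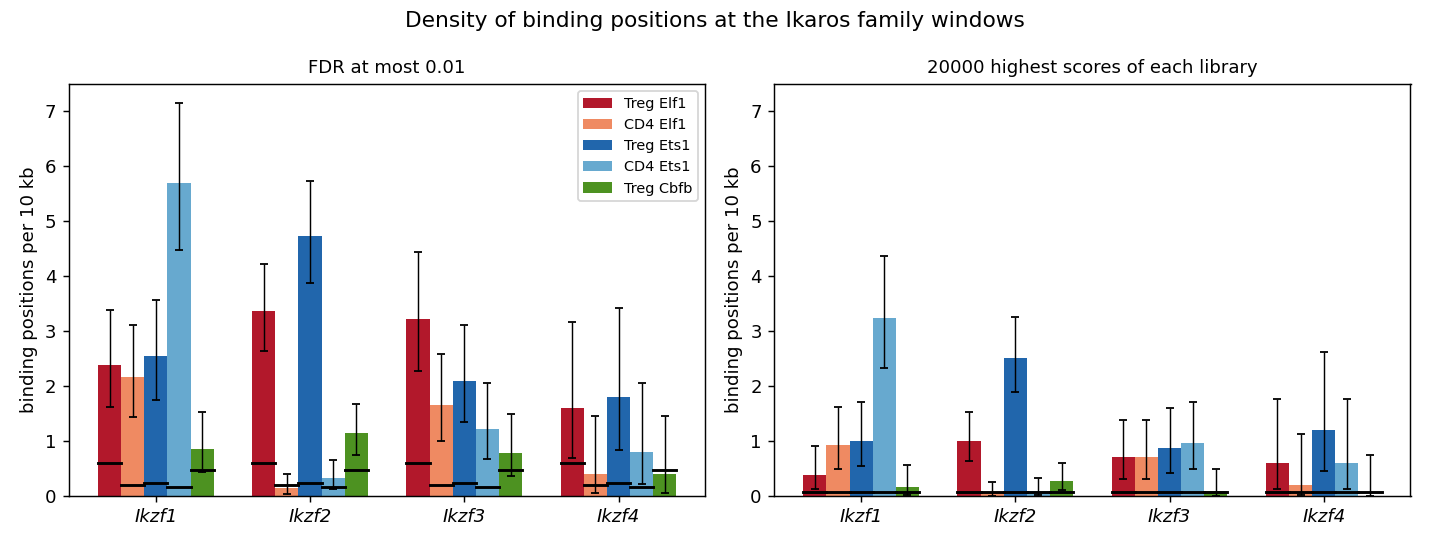
Binding positions per 10 kb (vertical axis) in the 4 Ikaros family windows for each library, with exact Poisson 95% intervals as error bars and the density over the numbered chromosomes and X as a black line. The left panel uses positions with an FDR of at most 0.01, the right panel the 20000 highest scores of each library. At Ikzf2 the Treg Elf1 and Ets1 bars stand at 3.36 and 4.73 in the left panel and the CD4 bars at 0.136 and 0.318, while at Ikzf1 CD4 Ets1 is the highest bar of both panels.

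Treg positions covered most of the Ikzf2 window and did not form 1 peak. Divided into 22 bins of 10 kb, the window had Treg Elf1 positions in 21 bins and Treg Ets1 positions in 20. CD4 Elf1 positions lay in 3 bins and CD4 Ets1 positions in 5. The fullest bin held 10 Treg Elf1 positions (180 to 190 kb from the left end) and the fullest Ets1 bin held 10 (190 to 200 kb). Neighbouring Treg Elf1 or Ets1 positions lay at a median of 650 bp from each other, with a longest gap of 12.0 kb. For CD4 the median gap was 24898 bp and the longest 37.5 kb.

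Enrichment at single Ikzf2 positions was moderate. The median fold enrichment was 5.55 for Treg Elf1 and 4.66 for Treg Ets1, beside 5.71 and 3.71 over the whole lists. The lower bound of the fold enrichment was under 1 at 26 of the 74 Treg Elf1 positions (35.1%) and at 44 of the 104 Treg Ets1 positions (42.3%). Over the whole lists these shares were 47.0 and 57.7%. With positions of a lower bound under 1 left out, a choice made after the values had been seen, the window held 48 Treg and 1 CD4 Elf1 positions, and 60 Treg and 3 CD4 Ets1 positions. The highest score at Ikzf2 was that of Treg Ets1 at 69729656 (6.36-fold), rank 452 of 226148 in its library, and the highest Treg Elf1 score was at 69704298 (3.95-fold, rank 4004). The best CD4 positions were Elf1 at 69733701 (3.50-fold, rank 15909) and Ets1 at 69630594 (10.9-fold, rank 14226).

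Many Treg positions at Ikzf2 had no position of the same factor at any FDR within 1 kb in CD4. This held for 54 of 74 Elf1 positions (73.0%) and 67 of 104 Ets1 positions (64.4%), beside 65.0 and 51.7% of the whole Treg lists. The highest score among these Ets1 positions was at 69589154, enriched 41.9-fold (lower bound 6.94). For Elf1 it was the one at 69704298 named above, whose nearest CD4 Elf1 position lay 2693 bp away. In all deposited positions, without a limit on FDR, the window held 81 Treg and 27 CD4 Elf1 positions, and 196 Treg and 39 CD4 Ets1 positions. The Treg share was then 75% for Elf1 and 83.4% for Ets1, beside 43.8 and 48.3% of the whole lists, so weak CD4 positions narrowed the gap without closing it.

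The Treg factors lay close together at Ikzf2, though not there alone. Of the Treg Elf1 positions 33.8% (23.2 to 45.7) had a Treg Ets1 position within 200 bp, beside 7.26% of the whole Treg Elf1 list. At Ikzf1, Ikzf3 and Ikzf4 this share was 19.4% (of 31), 27.0% (of 37) and 37.5% (of 8). The density of Ets1 positions in the Ikzf2 window was itself 20.2 times that of the genome. Its part in the Ikzf2 share was not tested. Cbfb had 25 Treg positions in the Ikzf2 window, 2.47 times its genome density. Of these, 6 had Treg Ets1 within 200 bp (24%, 9.36 to 45.1, beside 2.97% of the whole Cbfb list) and 3 had Treg Elf1 (12%, 2.55 to 31.2, beside 5.14%). At Ikzf1 (11 Cbfb positions) these shares were 18.2% for Ets1 and 18.2% for Elf1, and at Ikzf3 (9 positions) 22.2 and 33.3%. Of the 2 Cbfb positions at Ikzf4, 1 had Treg Ets1 and 0 had Treg Elf1. When positions of all libraries were chained within 200 bp into sites, Ikzf2 had 177 sites. None of them held 4 or 5 libraries, and 4 held 3. An example between 69666256 and 69666619 held Treg Elf1 (7.34-fold, lower bound 0.392), Treg Ets1 (18.0-fold, lower bound 2.39) and Treg Cbfb (7.84-fold, lower bound 1.49). Of its 159 sites with an Elf1 or Ets1 position, 149 were in Treg alone, 7 in CD4 alone and 3 in both.

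**Figure D2:**
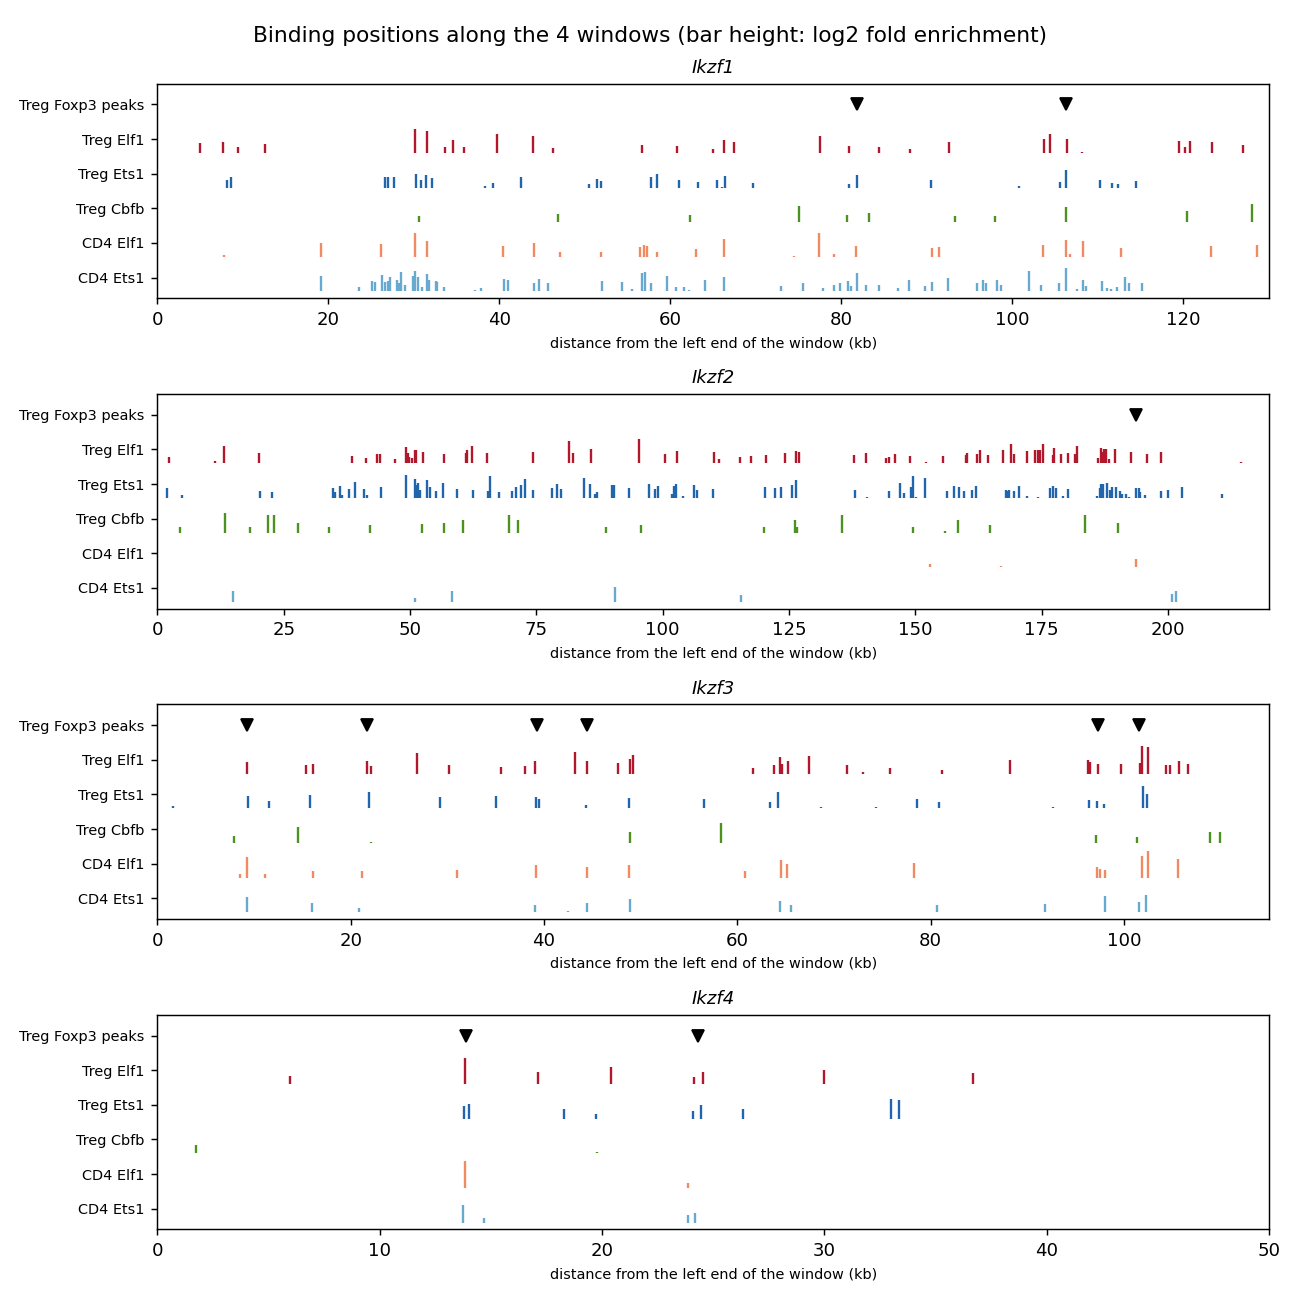
Positions with an FDR of at most 0.01 along the 4 windows, as distance in kb from the left end of each. Each bar is 1 position, its height grows with the log2 fold enrichment (positions near or under 1-fold are drawn at a small fixed height), and triangles are Foxp3 peaks. The Treg rows of Ikzf2 hold 74 Elf1, 104 Ets1 and 25 Cbfb bars and its CD4 rows 3 Elf1 and 7 Ets1 bars, while at Ikzf4 the tall Elf1 bars of both cell types sit under the first Foxp3 peak.

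At Ikzf1 the order of the cell types was the other way round for Ets1. The Treg library had 33 Ets1 positions there and the CD4 library 74, so that Treg supplied 30.8% (22.3 to 40.5), against 59.5% over the whole lists. Per 10 kb these were 2.54 Ets1 positions (1.75 to 3.56) in Treg and 5.69 (4.47 to 7.15) in CD4, 10.9 and 35.8 times the genome densities. Among the 20000 highest scores the counts were 13 in Treg and 42 in CD4. A difference at least as low was found in 2 of 20289 tiles as wide as the window (0.00986%), and 1 of these overlapped the Ikzf1 window.

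Elf1 differed less at Ikzf1. It had 31 positions in Treg and 28 in CD4 (52.5% Treg, 39.1 to 65.7), where Treg supplied 74.6% over the whole lists, and among the 20000 highest scores the counts were 5 in Treg and 12 in CD4 (29.4% Treg, beside 50%). Which cell type had more positions depended on the list, but the Treg share was below that of the whole list in each of the 5 lists tried. Tiles with a difference at least as low made up 0.207%. CD4 Ets1 positions crowded between 20 and 30 kb from the left end of the window, where 1 bin of 10 kb held 12 of the 74. The fullest Treg Ets1 bins held 6. One-sided positions made up smaller shares at Ikzf1 than in the whole lists, for both factors and both cell types. For Elf1 they were 8 of 31 in Treg (25.8%, beside 65.0% of the list) and 9 of 28 in CD4 (32.1%, beside 49.4%). For Ets1 the list shares were 51.7% in Treg and 39.2% in CD4. Within 1 kb of all but 2 of the 33 Treg Ets1 positions and all but 14 of the 74 CD4 Ets1 positions, the other cell type had an Ets1 position of some FDR. At any FDR the window was dense, with 71 Treg and 153 CD4 Ets1 positions, 6.38 and 12.8 times the genome densities. For Elf1 there were 36 and 74, at 3.90 and 6.23 times. The part of this density in the low one-sided shares was not tested. The highest-scoring one-sided Ets1 positions were at 11568628 for Treg (5.99-fold) and at 11588963 for CD4 (2.71-fold).

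Several Ikzf1 sites were bound by both ETS factors in both cell types. At 11590076 Treg Elf1 was enriched 46.5-fold (lower bound 13.5) and at 11590078 CD4 Elf1 46.9-fold (lower bound 14.0). Treg Ets1 lay at 11590214 (9.42-fold) and CD4 Ets1 at 11590129 (27.4-fold). That Treg Ets1 position had the highest Treg Ets1 score of the window, rank 1700. The highest Elf1 scores of both cell types lay near each other, at 11626307 in Treg (8.23-fold) and 11626263 in CD4 (17.6-fold). All 5 libraries met between 11666267 and 11666331, within a Foxp3 peak. The Treg libraries there showed 8.97-fold (Elf1), 16.6-fold (Ets1) and 11.3-fold (Cbfb) enrichment, and the CD4 libraries 14.9-fold (Elf1) and 43.3-fold (Ets1). The Cbfb position there had the highest Cbfb score of the window, rank 1722 of 161760. The Treg Elf1 position there ranked 151093 of 187745 by score, at an FDR of 0.00581. At the stricter FDR limit the window had 0 Treg Elf1 positions at a Foxp3 peak. The meeting of all 5 libraries thus did not hold at that limit. Over the window Cbfb had 11 positions, 1.84 times its genome density, with an interval of 0.422 to 1.51 per 10 kb around 0.846, beside 0.460 over the genome.

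Ikzf3 carried most of the Foxp3 peaks of the family, 6 of the 11. It had 37 Treg and 19 CD4 Elf1 positions and 24 Treg and 14 CD4 Ets1 positions. Treg shares were 66.1% (52.2 to 78.2) for Elf1 and 63.2% (46.0 to 78.2) for Ets1, and both intervals held the shares of the whole lists. Among the 20000 highest scores the counts were 8 in each cell type for Elf1, and 10 in Treg and 11 in CD4 for Ets1. Elf1 differences at least as high occurred in 83.2% of tiles, and Ets1 differences at least as low in 17.8%. Against the genome, all 4 densities were high, at 5.39 (Treg Elf1), 8.94 (Treg Ets1), 8.15 (CD4 Elf1) and 7.66 (CD4 Ets1) times the lists' own levels.

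The strongest Ikzf3 stretch by fold enrichment lay about 102 kb from the left end of the window. Elf1 reached 71.0-fold at 98412455 in Treg and 77.9-fold at 98412445 in CD4. Ets1 lay at 98412429 in Treg (9.99-fold, the top Ets1 score of the window) and at 98412235 in CD4 (17.2-fold, also the top). A little to the left of it, Treg Elf1 at 98411841 had 85.6-fold and CD4 Elf1 at 98411863 had 31.5-fold. A second site with all 5 libraries lay between 98358781 and 98358876, without a Foxp3 peak. Its Treg fold enrichments were 10.3 (Elf1), 5.19 (Ets1) and 5.75 (Cbfb), its CD4 ones 8.28 (Elf1) and 8.01 (Ets1), and its Cbfb position had the highest Cbfb score of the window. Of the 66 Ikzf3 sites, 8 held 4 or 5 libraries, against 5 of 123 at Ikzf1, 1 of 16 at Ikzf4 and 0 of 177 at Ikzf2, beside 2.04% of all sites.

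The Ikzf4 window had few positions, and 1 of them ranked near the top of its library. At 128063827 Treg Elf1 was enriched 69.6-fold (lower bound 29.1), rank 20 of 187745 by score. At 128063824, 3 bp away, CD4 Elf1 was enriched 74.5-fold (lower bound 31.5), rank 234 of 241359. Ets1 lay next to them at 128063771 in Treg (8.27-fold, rank 2815) and at 128063740 in CD4 (17.9-fold, rank 398). A Foxp3 peak covered the site, from 128063763 to 128063963. The nearest Cbfb position of any FDR lay 5898 bp from the centre of the peak. The strong Elf1 site lay 13.8 kb from the left end of the window, on the side where RefSeq (GRCm38.p6) has Rps26. Whether it belongs to Ikzf4 or to that neighbour was not checked in mm9.

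Over the whole Ikzf4 window the counts were 8 Treg and 2 CD4 for Elf1 and 9 Treg and 4 CD4 for Ets1. Treg shares of 80% (44.4 to 97.5) and 69.2% (38.6 to 90.9) have intervals that hold the shares of the whole lists. At the 20000 highest scores the differences were 2 for Elf1 and 3 for Ets1, reached by 1.83 and 0.517% of tiles. CD4 Elf1 and Ets1 positions lay between 128063740 and 128074189, a span of 10.4 kb, while those of Treg spread over 30.7 kb. The highest Treg Elf1 score with no CD4 Elf1 position within 1 kb was at 128079984 (10.3-fold, lower bound 3.09). Cbfb had 2 positions, 0.869 times its genome density.

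Foxp3 peaks were then counted per window. There were 2 at Ikzf1, 1 at Ikzf2, 6 at Ikzf3 and 2 at Ikzf4, or 0.214 per 10 kb over the 4 windows (0.107 to 0.382), beside 0.0109 over the numbered chromosomes and X. At least as many peaks were found in 3.03% of tiles as wide as the Ikzf1 window, 13.4% of those as wide as Ikzf2, 0.105% for Ikzf3 and 1.01% for Ikzf4. The 24 tiles with 6 or more peaks at the Ikzf3 width did not overlap the Ikzf3 window, whose peaks the tile borders divided. The window with the largest Treg excess of ETS positions, Ikzf2, had the fewest Foxp3 peaks. Its 1 peak made 0.0455 per 10 kb (0.00115 to 0.253), 4.16 times the genome density, which the interval held. The 178 Treg Elf1 and Ets1 positions of Ikzf2 included 1 near a Foxp3 peak, an Ets1 position at 69733729. In the whole lists 1.80% of Treg Elf1 and 4.14% of Treg Ets1 positions lay at a Foxp3 peak.

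All 11 Foxp3 peaks of the windows had a Treg Elf1 or Ets1 position within 200 bp, where 95.5% of all Foxp3 peaks did, and 10 had a CD4 Elf1 or Ets1 position (95.3% of all). Both counts are about the general rate. By library, 9 peaks had Treg Elf1, where 85.2% of all Foxp3 peaks did, and 10 had Treg Ets1 (83.5% of all). Treg Cbfb was at 3 of them (28.1% of all). CD4 Elf1 was at 9 (88.9% of all) and CD4 Ets1 at 8 (89.0% of all). All 4 Elf1 and Ets1 lists met at 5 of the 11 peaks, or 45.5% (16.7 to 76.6), beside 66.1% of all Foxp3 peaks. With 11 peaks, the interval of each of these 6 shares held the value of the whole Foxp3 list.

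The peaks differed in their sets of partners, although 4 of them (those that begin at 98319168, 98349188 and 98354364 at Ikzf3, and at 128063763 at Ikzf4) had all the Elf1 and Ets1 lists and no Cbfb. At the first Ikzf1 peak, 11641702 to 11641902, Ets1 lay 1 bp from the centre in Treg (7.59-fold) and at the centre in CD4 (19.2-fold, the top CD4 Ets1 score of the window). CD4 Elf1 was there too (5.34-fold), and the nearest Treg Elf1 position was 897 bp away. The second Ikzf1 peak, 11666200 to 11666400, was the site of all 5 libraries described above. At the Ikzf2 peak, 69733647 to 69733847, Treg Ets1 had 4.66-fold, and CD4 Elf1 3.50-fold. The nearest positions of any FDR were 970 bp from its centre for Treg Elf1 and 4975 bp for CD4 Ets1.

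The 6 Ikzf3 peaks began at 98319168, 98331566, 98349188, 98354364, 98407178 and 98411498. Treg Elf1 was present at all 6, with fold enrichments between 4.54 and 8.32 at the nearest position. CD4 Elf1 was present at 5, with values between 5.63 and 31.5. The sixth peak had 2 Treg Elf1 positions. The farther one, at 98411841, had 85.6-fold, and the CD4 Elf1 position with 31.5-fold lay 22 bp from it. At the first peak Treg Elf1 had 6.36-fold and CD4 Elf1 30.4-fold. At the second peak Treg Elf1 (8.32-fold) and Treg Ets1 (13.2-fold) passed the FDR limit. CD4 Elf1 (3.08-fold) and CD4 Ets1 (3.99-fold) were deposited there at FDRs of 0.177 and 0.0792. The fifth and sixth peaks had Cbfb, at 3.36-fold and 2.61-fold. Both lower bounds were under 1 (0.776 and 0.505), and neither position passed the stricter FDR of 0.001. At the second Ikzf4 peak, 128074216 to 128074416, Treg Ets1 had 9.42-fold, Treg Elf1 3.34-fold and CD4 Ets1 4.76-fold, while a CD4 Elf1 position at its centre (10.3-fold) had an FDR of 0.163.

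**Figure D3:**
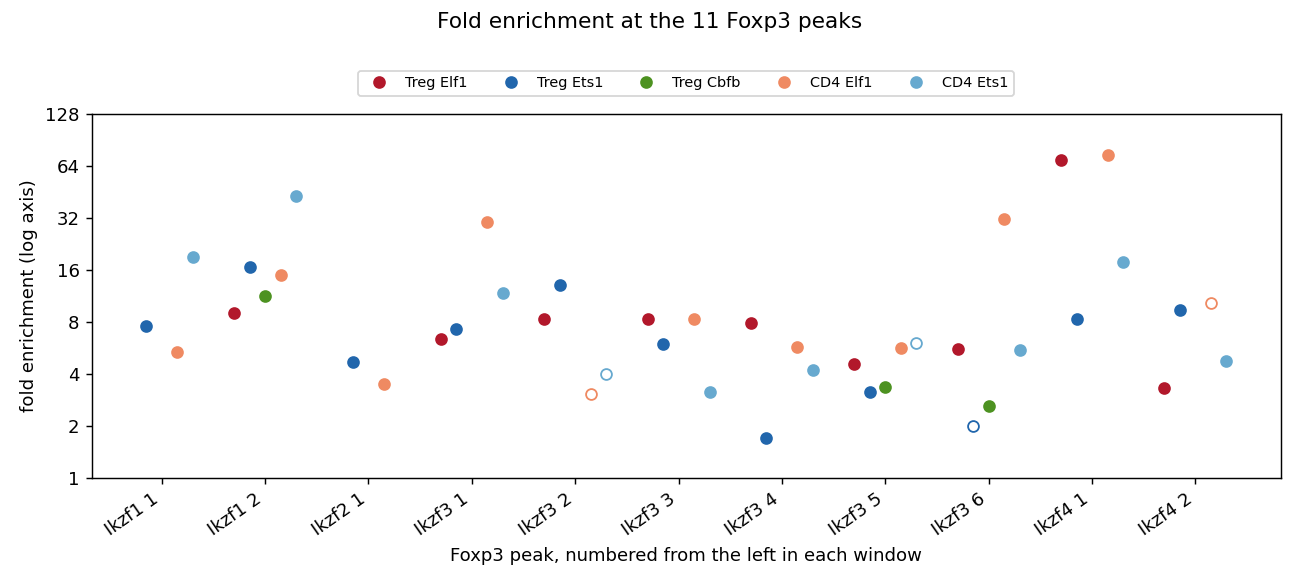
Fold enrichment (vertical log axis) of the nearest position of each library within 200 bp of the 11 Foxp3 peaks, numbered from the left in each window. Filled points passed an FDR of 0.01, open points did not, and a missing point means no deposited position within that distance. Among these nearest positions, Elf1 at the first Ikzf4 peak is the highest in both cell types, at 69.6-fold in Treg and 74.5-fold in CD4. A farther Treg Elf1 position within 200 bp of the last Ikzf3 peak, at 85.6-fold, is not drawn. Cbfb appears at 3 peaks.

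Where a Treg position had a CD4 position of the same factor within 200 bp, their fold enrichments were set side by side. The windows gave 23 Elf1 pairs. At least 2-fold lower in Treg were 6 of them, where 19.4% of all 17926 Elf1 pairs were, and at least 2-fold higher were 3, where 13.8% of all pairs were. The median Treg over CD4 log2 ratio was -0.10 (SD over pairs 1.34) in the windows and -0.17 over all pairs. For Ets1, 8 of 26 pairs were at least 2-fold lower in Treg (28.5% of all 11551 pairs) and 3 at least 2-fold higher (8.07%). The medians were -0.56 (SD 1.29) in the windows and -0.44 over all pairs. The pairs at least 2-fold lower in Treg were thus 26.1% of the Elf1 and 30.8% of the Ets1 pairs of the windows. No interval was computed for these shares of 23 and 26 pairs, so neither is read as an excess over all pairs. At Ikzf3 the Treg Elf1 positions 98374441 and 98374650 were paired with the same CD4 position, 98374476. Only the latter pair was at least 2-fold lower.

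Ikzf1 gave 10 Elf1 pairs with a median of -0.05 and 15 Ets1 pairs with a median of -0.50. None of these Ets1 pairs was 2-fold higher in Treg, where 8.07% of all Ets1 pairs were. At least 2-fold lower were 5 (33.3%), near the 28.5% of all Ets1 pairs. Centred on the median of all Ets1 pairs, -0.44, the Ikzf1 Ets1 median was -0.06. The 15 Ets1 pairs had a median fold enrichment of 5.27 in Treg and 5.03 in CD4. Their ratios and their medians thus differ in direction. Ikzf3 gave 12 Elf1 pairs (median -0.15) and 7 Ets1 pairs (median -0.68), and Ikzf4 gave 1 and 2. Ikzf2 gave no Elf1 pair and 2 Ets1 pairs, both with the same CD4 position at 69591041. Treg Ets1 had 22.0-fold at 69590902 and 7.59-fold at 69591209, against 1.91-fold in CD4, for log2 ratios of 3.53 and 1.99. The lowest Elf1 ratio of the family, a log2 ratio of -3.91, was at Ikzf1. Treg Elf1 at 11668139 had 0.816-fold (lower bound 0.000781). CD4 Elf1 at 11668308, 169 bp away, had 12.3-fold (lower bound 4.09). With so low a Treg bound, the size of this ratio is uncertain.

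Set together, the 4 windows fell into different patterns of Elf1 and Ets1 sites. The share of sites held by Treg alone was 25.6% of 117 at Ikzf1, 93.7% of 159 at Ikzf2, 60% of 60 at Ikzf3 and 73.3% of 15 at Ikzf4. Over chromosomes 1 to 19 and X, 69.6% of 259819 such sites were held by Treg alone, 21.0% by CD4 alone and 9.41% by both. The share held by CD4 alone was 50.4, 4.40, 20 and 13.3% in the 4 windows, and the share held by both was 23.9, 1.89, 20 and 13.3%. The Treg-only majorities at Ikzf3 and Ikzf4 were thus near the genome's own share, and the Treg lists were the longer ones. Sites that held at least 3 libraries numbered 12 at Ikzf1, 4 at Ikzf2, 10 at Ikzf3 and 2 at Ikzf4, and of these 2, 0, 5 and 2 lay at a Foxp3 peak. Over the genome 4.03% of all sites held at least 3 libraries, and 16.3% of those lay at a Foxp3 peak.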

How the data were processed

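Bowtie 0.12.7 and build mm9 are named for the reads, per the submitters' processing notes. The authors combined the Foxp3 replicates, per the labels, into a single list of 200 bp intervals without scores. For the other 5 libraries the deposited lists gave, per the file headers, a position, a score, an E-value, an FDR (a q-value), and a maximum likelihood fold with its lower bound, which are the authors' values. Neither the peak caller nor the control used for the fold is given in the sources used here, and depth was unknown.

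The windows and lists were chosen with earlier results of these data known. Inside the windows, positions passing an FDR of 0.01 were counted. A position was at a Foxp3 peak, or common to both cell types, within 200 bp, and a site chained positions within 200 bp. A position was one-sided when the other cell type's list of that factor had nothing within 1 kb. A pair took each Treg position with its nearest CD4 position, and a call was past 2-fold. Genome values and tiles of each window's width used chromosomes 1 to 19 and X, up to the highest coordinate in any list. Tile comparisons of position counts were added after the data had been seen. Counts have exact Poisson and shares exact Clopper-Pearson 95% intervals.

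The rule for named items took all Foxp3 peaks of the windows with the nearest position of each library, the highest score per window and library, the highest and lowest pair ratios, the highest one-sided scores, and sites with all 5 libraries. Other positions in the text were chosen after their values were seen. Genes in the mm9 windows were not checked against an mm9 annotation. Functions were tested on simulated data. Python 3.11.15, numpy 2.4.6, pandas 2.3.3, scipy 1.17.1 and matplotlib 3.10.9 were used.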

Additional observations from a re-analysis of the deposited data

How the results depend on the processing

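No paired analysis was possible because the Foxp3 and input samples that share replicate numbers came as 1 pooled list and as files not analysed here, and every other group had 1 library. Alternatives were a stricter FDR of 0.001, all deposited positions, the 10000 and 20000 highest scores, windows widened by 10 kb, other distances, midpoints, the lower bound of the fold, the score in place of fold, another centring and, added after the data had been seen, positions with a lower bound of at least 1. Of 128 comparisons, 107 stayed within the counting interval, the spread over pairs or 1.5 times the count, some of which are wide. Among these, the Ikzf4 Elf1 share of 80% was 50% with all positions and with the 10000 highest, and the Elf1 medians of -0.05, -0.15 and -0.10 at Ikzf1, Ikzf3 and Ikzf4 were -1.55, -0.89 and -0.77 by score and 0.12, 0.02 and 0.07 after centring. The Ikzf4 one was -0.86 with all positions, and the Ikzf3 one 0.16 within 100 bp. The Treg share of Elf1 positions at Ikzf1, 52.5%, turned to 32.7% with all deposited positions, 42.9 and 29.4% with the 10000 and 20000 highest scores and 44.1% with the lower bound. At Ikzf3 the Elf1 share of 66.1% became 47.6% with all positions and 50% with the 20000 highest. The Ikzf3 Ets1 share of 63.2% became 47.6% at the stricter FDR, 38.5% with the 10000 and 47.6% with the 20000 highest. The Treg share of the whole lists moved as well. For Elf1 it was 74.6% in the main lists, 43.8% with all positions and 50% in lists of equal length. For Ets1 it was 59.5% in the main lists, 50.4% at the stricter FDR and 50% in lists of equal length. At Ikzf2 the shares moved without turning, to 75% (Elf1) and 83.4% (Ets1) with all positions and to 100% for both with the 10000 highest. Foxp3 peaks with a position numbered 3 (Treg Elf1), 4 (Treg Ets1), 1 (Treg Cbfb) and 3 (CD4 Elf1) with the 10000 highest scores, and to 1 for Treg Cbfb at the stricter FDR. The median Ets1 log2 ratio at Ikzf2, 2.76 over 2 pairs, was -0.0068 by score and 1.08 with all positions. At Ikzf4 it was -0.79, and 0.62 with all positions. Why these values moved was not tested. Counts of single windows and libraries moved by over 1.5 times in 74 of 120 cases. These include lists cut to 10000 or 20000 positions and lists without a limit on FDR, which hold fewer or more positions by design. Fold values rest on a control that is not known, and Ikzf4 in particular is limited by counts of 2 to 9 per library.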
